A study of Mus musculus with 12 samples.

Results

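The cell cycle and DNA replication genes described here were 58 genes chosen by symbol, out of the 55487 genes counted in each table of the study. They comprised 20 replication genes, 25 mitosis genes and 13 genes that control the G1 phase. The replication genes covered origin licensing and the helicase, the polymerase, primase, clamp and clamp loader, and nucleotide supply. The mitosis genes covered chromatin of dividing cells, mitotic cyclins with Cdk1, partners of the anaphase-promoting complex, mitotic kinases, the spindle checkpoint, centromeres and spindle motors. All 58 passed the filter on low counts in both experiments, so no gene was dropped. The choice used no measured value, but it was made with earlier results of these data known.

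A dividing cell first decides in G1 whether to enter the cycle. D-type cyclins with Cdk4 and E-type cyclins with Cdk2 release E2F factors from the retinoblastoma protein, and CDK inhibitors such as Cdkn1a and Cdkn1b hold this step back. In S phase the Mcm2 to Mcm7 helicase, loaded by Cdc6 and Cdt1, opens the DNA for the polymerases, and later genes such as Ccnb1, Plk1 and Bub1 build the spindle and part the chromosomes. Macrophages grown from bone marrow and marrow stromal cells both divide in culture, and these genes are widely used as markers of such division.

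RNA-seq (sequencing of poly(A) RNA) was made in 2 experiments on cells from the limbs of C57BL/6 mice, labelled as 8 weeks old. In the first, bone marrow-derived macrophages, cultured with macrophage colony-stimulating factor according to the methods, came from ovariectomized (OVX) or sham-operated mice, with 3 libraries each. In the second, cells labelled as mesenchymal stem cells (MSCs) were left as controls (MSC), cultured with RAW264.7 cells, a mouse macrophage line (MSC+RAW-TW), or cultured with RAW264.7 cells stimulated with lipopolysaccharide (LPS), a bacterial wall component (MSC+RAW-LPS-TW), with 2 libraries each. The methods place the RAW264.7 cells behind a transwell membrane in such co-cultures.

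The libraries held between 17012923 and 45367105 counts. Sham 2 and sham 3 differed by little more than sampling noise, and so did both MSC+RAW-TW libraries, with a mean chi-square over its expectation of 4.88 and 4.46 at genes of at least 5000 counts, against 84.4 to 866 in the other pairs of a group. Each of these pairs was counted as 1 sample, which left 3 OVX against 2 sham samples, 2 MSC against 2 MSC+RAW-LPS-TW samples, and 1 MSC+RAW-TW sample without a replicate. Neither labels nor columns say whether samples came from separate mice or cultures, so p-values measure only the spread between these samples, which may be technical. Levels are given in CPM, which are counts brought to 1 common library total after scaling with the trimmed mean of M values.

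The labelled cell types were checked against 12 macrophage and 12 stromal markers. The macrophage libraries held 44370 to 64410 CPM of macrophage markers in sum and also 7187 to 8136 CPM of stromal markers. The libraries labelled MSC held 14230 to 38090 CPM of macrophage markers and 2142 to 4061 CPM of stromal markers. Of the stromal markers Thy1, a surface protein, stood at 0.24 to 2.16 CPM there, Lepr at 0.77 to 2.19 CPM, and Lum at 0.17 to 0.50 CPM outside the MSC+RAW-LPS-TW libraries. Others were well above these, such as Col1a1 (453.8 to 794.6 CPM) and Col1a2 (608.5 to 1085 CPM). Pdgfrb (139.4 to 167 CPM) and Eng (61.67 to 131 CPM) were higher there than in the macrophage libraries (91.13 to 113.7 and 18.38 to 30.02 CPM). In the MSC libraries Lyz2, a lysozyme of myeloid cells, stood at 21610 and 21700 CPM. The 4 Y-linked genes Ddx3y, Eif2s3y, Kdm5d and Uty summed to at most 0.0523 CPM in the macrophage libraries and to 63.4 to 125 CPM in all 6 libraries labelled MSC, while the methods name female mice. Every value below from the second experiment belongs to libraries labelled MSC with this marker profile. In such bulk samples a smaller share of dividing cells and less RNA per dividing cell cannot be told apart.

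E2F factors are known to act on many replication genes through E2F sites, and many mitosis genes are known to be held back by a complex that sits on the cell cycle genes homology region (CHR), often beside CCAAT boxes bound by NF-Y. The promoters of the members were therefore searched for these letters, in windows from 250 bases before to 50 bases after the start, on both strands (RefSeq, build GRCm38.p6). For E2F the letters TTCCCGC were searched for, with TTGGCGC as another form, next to TTCGCGC and also TTGCCGC. For the CHR they were TTTGAA with TTCGAA as its other form, and for NF-Y they were CCAAT, and matches could share letters. Of the 58 members 47 had a window. No window was used for Aurkb, Ccna2, Ccnd1, Ccnd2, Ccne2, Cdc25c, Gins1, Gins2, Kif20a, Mcm4 and Tpx2.

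The E2F letters were found in 12 of 18 windows of replication genes (66.7%) and in 3 of 20 windows of mitosis genes (15%), against 9.57% of 32851 windows of all genes. For the CHR letters the order was the other way, with 4 of 18 replication windows (22.2%) and 15 of 20 mitosis windows (75%), against 19.2% of all windows. Each of those 15 mitosis windows also held CCAAT, a pair found in 7.52% of all windows. A match describes letters and is not a bound site. Windows of 5 genes are printed 5′ to 3′ on the strand of the gene, as examples of replication genes that fell in MSC+RAW-LPS-TW (Mcm5 and Mcm6) and of mitosis genes that rose in OVX (Bub1, Ccnb2 and Kif11), with matches to any of the 3 motifs in capitals.
Mcm5 (chr8:75109259-75109558, plus strand): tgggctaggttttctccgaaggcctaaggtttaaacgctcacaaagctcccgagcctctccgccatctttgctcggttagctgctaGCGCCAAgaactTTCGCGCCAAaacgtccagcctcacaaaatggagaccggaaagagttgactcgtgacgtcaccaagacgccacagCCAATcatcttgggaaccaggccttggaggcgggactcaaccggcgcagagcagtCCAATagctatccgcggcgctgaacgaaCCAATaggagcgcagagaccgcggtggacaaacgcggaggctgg
Mcm6 (chr1:128359656-128359955, minus strand): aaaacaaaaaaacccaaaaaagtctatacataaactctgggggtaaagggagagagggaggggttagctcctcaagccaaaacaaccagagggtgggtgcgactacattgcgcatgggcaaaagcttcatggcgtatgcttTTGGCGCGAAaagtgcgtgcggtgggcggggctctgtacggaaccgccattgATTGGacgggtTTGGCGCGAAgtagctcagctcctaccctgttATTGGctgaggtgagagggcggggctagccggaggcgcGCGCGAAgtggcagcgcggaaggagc
Bub1 (chr2:127831810-127832109, minus strand): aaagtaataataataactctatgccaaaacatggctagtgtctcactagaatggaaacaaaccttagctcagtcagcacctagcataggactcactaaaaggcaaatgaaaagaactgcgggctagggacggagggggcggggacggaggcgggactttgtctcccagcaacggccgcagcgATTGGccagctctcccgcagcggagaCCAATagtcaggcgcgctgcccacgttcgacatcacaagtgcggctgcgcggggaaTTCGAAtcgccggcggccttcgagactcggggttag
Ccnb2 (chr9:70421505-70421804, minus strand): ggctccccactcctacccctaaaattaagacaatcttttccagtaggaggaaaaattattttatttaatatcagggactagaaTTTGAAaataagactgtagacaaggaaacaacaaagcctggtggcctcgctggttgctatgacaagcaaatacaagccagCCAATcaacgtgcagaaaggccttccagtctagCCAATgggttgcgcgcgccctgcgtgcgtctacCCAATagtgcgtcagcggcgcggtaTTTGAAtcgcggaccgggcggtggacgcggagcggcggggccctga
Kif11 (chr19:37376132-37376431, plus strand): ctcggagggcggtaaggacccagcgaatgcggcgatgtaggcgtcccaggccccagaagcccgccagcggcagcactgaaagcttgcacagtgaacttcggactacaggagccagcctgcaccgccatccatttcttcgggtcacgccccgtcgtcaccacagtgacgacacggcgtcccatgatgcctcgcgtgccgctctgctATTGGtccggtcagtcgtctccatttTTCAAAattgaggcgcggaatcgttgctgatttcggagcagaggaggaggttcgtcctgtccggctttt
In the Mcm5 and Mcm6 windows the capitals include matches to the E2F form TTGGCGC on either strand, and in the Bub1, Ccnb2 and Kif11 windows a CHR match lies downstream of a CCAAT match.

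Per kilobase of exon, the G1 genes Cdkn1a, an inhibitor of CDKs, and Cdk4 held the highest levels of the 58 genes in all 5 groups. Cdkn1a stood at 108 CPM per kb in sham, 74.1 in OVX, 115 in MSC, 217 in MSC+RAW-TW and 138 in MSC+RAW-LPS-TW. Cdk4 stood at 92.6, 94.4, 84.6, 122 and 59.5 CPM per kb in the same order. Pcna, the sliding clamp of the polymerases, came next in sham and OVX with 49.0 and 54.9 CPM per kb. The spindle checkpoint kinase Ttk was among the lowest 3 in every group, at 0.12 to 1.15 CPM per kb.

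Set apart by class, the summed level of the 25 mitosis genes was 480, 443 and 447 CPM in sham 1 to 3 and 851, 820 and 884 CPM in OVX 1 to 3. The 20 replication genes summed to 778, 649.6 and 639 CPM in sham and to 891, 832 and 734 CPM in OVX. The mitosis sums did not overlap between the groups, whereas the replication sum of sham 1 lay above that of OVX 3. The ratio of the replication to the mitosis sum was 1.43 to 1.62 in sham and 0.83 to 1.05 in OVX. In the libraries labelled MSC the replication genes summed to 815 and 882 CPM in MSC, 896 and 900.4 CPM in MSC+RAW-TW and 493 and 534 CPM in MSC+RAW-LPS-TW. The mitosis genes there summed to 728 and 655 CPM in MSC, 645 and 639 CPM in MSC+RAW-TW and 509 and 459 CPM in MSC+RAW-LPS-TW. Both sums were lowest in MSC+RAW-LPS-TW, where the ratio of replication to mitosis was 0.97 and 1.16, against 1.12 and 1.35 in MSC and 1.39 and 1.41 in MSC+RAW-TW.

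**Figure D1:**
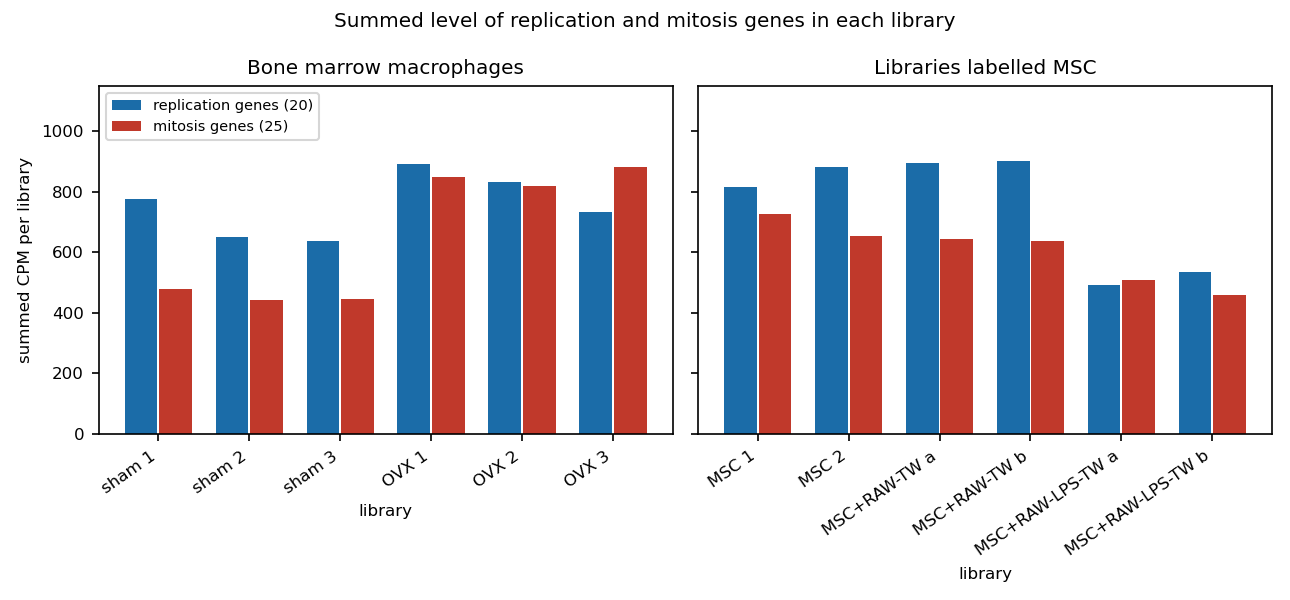
Summed CPM (vertical axis) of the 20 replication genes and the 25 mitosis genes in each of the 12 libraries (horizontal axis). The mitosis bars are taller in all 3 OVX libraries (820 to 884 CPM) than in the sham libraries (443 to 480 CPM), and the replication bars are shortest in the MSC+RAW-LPS-TW libraries (493 and 534 CPM).

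The first comparison asked how ovariectomy of the donor changed the macrophages. In OVX macrophages 16 of the 58 genes rose and 1 fell, and 13 of the 16 were mitosis genes. Among mitosis genes 13 of 25 rose and none fell, with a median log2 fold change of 0.88 over the 25. Among replication genes 2 of 20 rose, Pola1 and Rrm2, and none fell, with a median of 0.17. Among the G1 genes Ccne2 rose and Ccnd3 fell. Over all 16768 genes tested, 7.25% rose and 5.83% fell, and the median log2 fold change was -0.01. Calls came from the quasi-likelihood F-test of edgeR, with p adjusted after Benjamini and Hochberg and called up to 0.05. Of the 16 rises 12 were at least 2-fold, and the fall was not, against 5.39% of all genes higher and 3.08% lower by both criteria. All 25 mitosis genes had a log2 fold change above 0, and 22 of them did not overlap between sham and OVX samples, against 24.4% of all genes that lay higher without overlap. Over the 58 genes 32 lay higher and 3 lower without overlap, the latter against 22.9% of all genes.

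**Figure D2:**
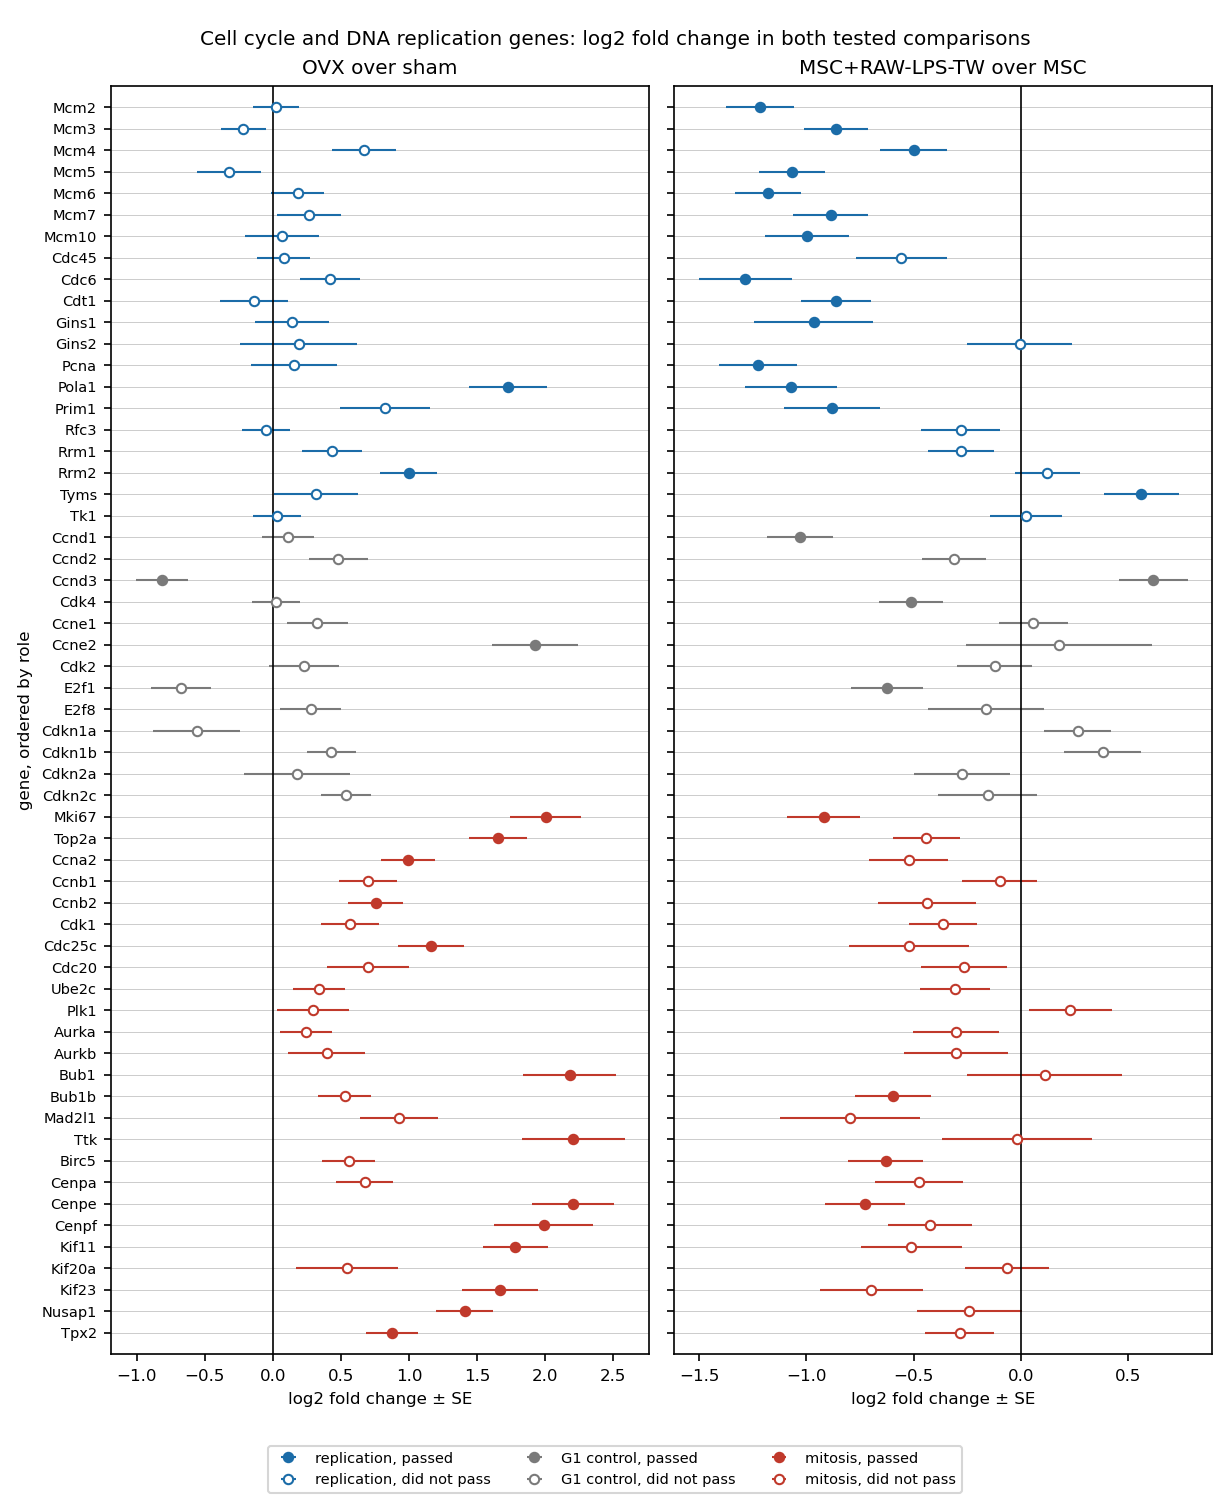
Log2 fold change with its standard error (horizontal axis) of each of the 58 genes (vertical axis, ordered by role) for OVX over sham and for MSC+RAW-LPS-TW over MSC. Filled points passed the test at an adjusted p of at most 0.05, and they are mostly mitosis genes on the left (13 of 16 higher) and replication genes on the right (13 of 20 lower).

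Both chromatin genes of dividing cells rose. Mki67, which codes for the proliferation marker Ki-67, held 14.4, 14.6 and 15.4 CPM in sham 1 to 3 and 57.0, 44.2 and 77.0 CPM in OVX 1 to 3. Every OVX library was far above every sham library, and the log2 fold change was 2 ± 0.26, adjusted p = 0.00637 (edgeR), a 4.005-fold rise. Top2a, the topoisomerase that untangles chromosomes before they part, held 25.9, 32.0 and 33.6 CPM in sham 1 to 3 and 87.8, 84.7 and 107 CPM in OVX 1 to 3. Again the groups did not overlap, and the log2 fold change was 1.65 ± 0.21, adjusted p = 0.00584 (edgeR).

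Of the mitotic cyclins and their kinase, 3 of 5 rose. Ccna2, the cyclin of S phase and mitotic entry, held 20.4, 20.1 and 15.7 CPM in sham 1 to 3 and 42.7, 38.5 and 33.1 CPM in OVX 1 to 3, and its log2 fold change was 0.99 ± 0.20, adjusted p = 0.0183 (edgeR). Ccnb2, a B-type cyclin that activates Cdk1, held 25.2, 18.9 and 19.2 CPM in sham 1 to 3 and 41.3, 34.8 and 36.6 CPM in OVX 1 to 3, with a log2 fold change of 0.75 ± 0.20, adjusted p = 0.0456 (edgeR). Cdc25c, the phosphatase that switches Cdk1 on, held 3.52, 5.19 and 3.73 CPM in sham 1 to 3 and 9.72, 7.93 and 8.98 CPM in OVX 1 to 3. In all 3 genes the OVX libraries stood above the sham libraries without overlap, with Ccnb2 closest to the threshold. Cdc25c had a log2 fold change of 1.16 ± 0.24, adjusted p = 0.0211 (edgeR). Cdk1 itself held 70.0, 45.8 and 49.3 CPM in sham 1 to 3 and 95.0, 83.1 and 85.7 CPM in OVX 1 to 3, and Ccnb1 held 36.7, 28.8 and 24.8 CPM in sham 1 to 3 and 58.9, 48.8 and 47.0 CPM in OVX 1 to 3. These also lay higher in every OVX library, but their log2 fold changes of 0.57 ± 0.21, adjusted p = 0.118 for Cdk1 and 0.70 ± 0.21, adjusted p = 0.068 for Ccnb1 did not pass the edgeR test.

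The spindle checkpoint delays anaphase until every chromosome is attached. Its kinase Bub1 held 2.35, 1.65 and 1.70 CPM in sham 1 to 3 and 12.4, 8.09 and 7.08 CPM in OVX 1 to 3, and its kinase Ttk held 1.41, 0.823 and 1.16 CPM in sham 1 to 3 and 6.25, 6.99 and 3.71 CPM in OVX 1 to 3. Both were low in sham and well above that in each OVX library, with log2 fold changes of 2.18 ± 0.34, adjusted p = 0.00882 for Bub1 and 2.21 ± 0.38, adjusted p = 0.0111 for Ttk (edgeR). Bub1b held 22.3, 20.6 and 18.4 CPM in sham 1 to 3 and 26.7, 29.8 and 34.1 CPM in OVX 1 to 3, and Mad2l1, whose product blocks Cdc20, held 19.6, 13.2 and 13.7 CPM in sham 1 to 3 and 41.7, 29.9 and 23.5 CPM in OVX 1 to 3. Neither passed, although neither overlapped, with log2 fold changes of 0.53 ± 0.20, adjusted p = 0.114 for Bub1b and 0.93 ± 0.29, adjusted p = 0.0713 for Mad2l1 (edgeR).

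At the centromere, Cenpe, the kinesin that carries chromosomes to the spindle equator, held 3.18, 3.74 and 4.37 CPM in sham 1 to 3 and 15.2, 13.2 and 22.2 CPM in OVX 1 to 3. Cenpf, a large kinetochore protein, held 1.95, 5.07 and 3.93 CPM in sham 1 to 3 and 13.4, 10.6 and 14.2 CPM in OVX 1 to 3. Both rose several-fold in OVX, with log2 fold changes of 2.20 ± 0.30, adjusted p = 0.00687 for Cenpe and 1.99 ± 0.37, adjusted p = 0.0139 for Cenpf (edgeR). Birc5, the survivin subunit of the chromosomal passenger complex, held 34.3, 41.2 and 44.3 CPM in sham 1 to 3 and 52.0, 56.0 and 63.9 CPM in OVX 1 to 3, and Cenpa, the histone variant of centromeres, held 34.5, 25.4 and 25.3 CPM in sham 1 to 3 and 45.4, 54.7 and 44.0 CPM in OVX 1 to 3. Both lay higher in every OVX library but did not pass, with log2 fold changes of 0.56 ± 0.19, adjusted p = 0.0969 and 0.67 ± 0.21, adjusted p = 0.072 (edgeR), in that order.

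Of 5 spindle and cytokinesis genes 4 rose. Kif11, the motor that pushes the spindle poles apart, held 6.77, 5.19 and 5.19 CPM in sham 1 to 3 and 24.0, 18.2 and 19.9 CPM in OVX 1 to 3. Kif23, a motor of the central spindle, held 4.32, 7.73 and 7.81 CPM in sham 1 to 3 and 18.2, 20.2 and 19.7 CPM in OVX 1 to 3. Nusap1, a microtubule-binding spindle protein, held 6.17, 7.85 and 6.11 CPM in sham 1 to 3 and 16.6, 18.8 and 16.9 CPM in OVX 1 to 3. In these 3 genes the lowest OVX library was above the highest sham library by a wide margin. Their log2 fold changes were 1.78 ± 0.24, adjusted p = 0.00668 for Kif11, 1.67 ± 0.28, adjusted p = 0.0109 for Kif23 and 1.41 ± 0.21, adjusted p = 0.00798 for Nusap1 (edgeR). Tpx2, which activates Aurora A on the spindle, held 20.9, 23.8 and 26.7 CPM in sham 1 to 3 and 38.6, 43.6 and 46.4 CPM in OVX 1 to 3 and had a log2 fold change of 0.88 ± 0.19, adjusted p = 0.0241 (edgeR). Kif20a held 2.48, 3.17 and 4.27 CPM in sham 1 to 3 and 3.02, 4.42 and 6.37 CPM in OVX 1 to 3, so its groups overlapped, with a log2 fold change of 0.54 ± 0.37, adjusted p = 0.364 (edgeR).

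The 3 mitotic kinases and the 2 partners of the anaphase-promoting complex did not pass the test. Plk1, the kinase that drives centrosome maturation, held 14.1, 19.6 and 17.2 CPM in sham 1 to 3 and 14.2, 23.3 and 22.4 CPM in OVX 1 to 3, and Aurkb, the kinase of the passenger complex, held 23.2, 11.4 and 12.3 CPM in sham 1 to 3 and 23.9, 24.2 and 21.7 CPM in OVX 1 to 3. Their groups overlapped, with sham 2 and 3 inside the OVX range for Plk1 and sham 1 inside it for Aurkb. Aurka held 21.5, 19.1 and 16.7 CPM in sham 1 to 3 and 21.7, 23.4 and 24.9 CPM in OVX 1 to 3. Log2 fold changes were 0.29 ± 0.26, adjusted p = 0.494 for Plk1, 0.24 ± 0.19, adjusted p = 0.439 for Aurka and 0.39 ± 0.28, adjusted p = 0.384 for Aurkb (edgeR). Ube2c, the ubiquitin-conjugating enzyme of the complex, held 51.1, 61.1 and 68.0 CPM in sham 1 to 3 and 69.3, 70.7 and 81.9 CPM in OVX 1 to 3, and its activator Cdc20 held 13.8, 6.84 and 8.54 CPM in sham 1 to 3 and 15.5, 22.2 and 15.2 CPM in OVX 1 to 3. Their OVX libraries lay above the sham libraries, with log2 fold changes of 0.34 ± 0.19, adjusted p = 0.277 for Ube2c and 0.69 ± 0.30, adjusted p = 0.165 for Cdc20 (edgeR).

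Origin licensing and helicase genes did not pass in OVX macrophages in any of 12 cases, and their median log2 fold change was 0.11. Mcm2 held 36.9, 38.4 and 36.4 CPM in sham 1 to 3 and 35.5, 38.9 and 39.3 CPM in OVX 1 to 3. Mcm5 held 50.6, 68.9 and 66.3 CPM in sham 1 to 3 and 36.3, 54.4 and 51.9 CPM in OVX 1 to 3. Mcm2 was nearly level across the 6 libraries, and Mcm5 was lowest in OVX 1. Their log2 fold changes were 0.0221 ± 0.17, adjusted p = 0.947 for Mcm2 and -0.32 ± 0.23, adjusted p = 0.389 for Mcm5 (edgeR). Of this set Mcm4 had the highest value, with 24.8, 14.9 and 15.6 CPM in sham 1 to 3 and 33.8, 31.7 and 30.8 CPM in OVX 1 to 3 and a log2 fold change of 0.67 ± 0.24, adjusted p = 0.0996 (edgeR). The other 9 had log2 fold changes between -0.22 (Mcm3) and 0.42 (Cdc6). Sham 1 stood above both other sham libraries at 8 of these 12 genes, namely Mcm4, Mcm6, Mcm7, Mcm10, Cdc45, Cdt1, Gins1 and Gins2.

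Past the origin, Pola1, the catalytic subunit of the polymerase that starts new strands, held 4.64, 2.91 and 4.90 CPM in sham 1 to 3 and 18.6, 14.1 and 10.7 CPM in OVX 1 to 3. Every OVX library was above every sham library, and the log2 fold change was 1.73 ± 0.29, adjusted p = 0.0105 (edgeR). Its partner Prim1, the primase, held 10.3, 7.47 and 5.58 CPM in sham 1 to 3 and 20.4, 13.5 and 10.6 CPM in OVX 1 to 3 and did not pass, with a log2 fold change of 0.82 ± 0.33, adjusted p = 0.141 (edgeR). Pcna held 144, 93.8 and 88.7 CPM in sham 1 to 3 and 176, 131 and 87.8 CPM in OVX 1 to 3, so OVX 1 was highest and OVX 3 lowest of all 6 libraries. Pcna had a log2 fold change of 0.16 ± 0.31, adjusted p = 0.782 (edgeR). Rrm2, the regulated subunit of ribonucleotide reductase, held 34.4, 26.9 and 26.3 CPM in sham 1 to 3 and 70.4, 58.4 and 55.1 CPM in OVX 1 to 3 and rose without overlap, with a log2 fold change of 0.997 ± 0.21, adjusted p = 0.0208 (edgeR). Its partner Rrm1 held 93.6, 71.8 and 71.6 CPM in sham 1 to 3 and 131, 114 and 92.4 CPM in OVX 1 to 3, which overlapped, with a log2 fold change of 0.43 ± 0.22, adjusted p = 0.223 (edgeR). The clamp loader subunit Rfc3 (-0.0507), Tk1 (0.0283) and Tyms (0.32) also overlapped.

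Among the G1 genes Ccne2, an E-type cyclin of S phase entry, held 1.09, 1.27 and 1.21 CPM in sham 1 to 3 and 5.43, 4.08 and 3.88 CPM in OVX 1 to 3 and rose, with a log2 fold change of 1.92 ± 0.31, adjusted p = 0.00975 (edgeR). Ccnd3, a D-type cyclin, held 31.7, 25.2 and 25.2 CPM in sham 1 to 3 and 16.2, 17.5 and 15.2 CPM in OVX 1 to 3 and fell, with a log2 fold change of -0.81 ± 0.19, adjusted p = 0.0307 (edgeR). Neither overlapped between the groups. E2f1, the activating E2F factor, held 30.6, 43.6 and 49.4 CPM in sham 1 to 3 and 25.1, 22.5 and 25.8 CPM in OVX 1 to 3, which put every OVX library below every sham library, but its log2 fold change of -0.67 ± 0.22, adjusted p = 0.0799 did not pass (edgeR). Cdkn1a held 323, 447 and 448 CPM in sham 1 to 3 and 156, 297 and 336 CPM in OVX 1 to 3, so OVX 1 was lowest and OVX 3 reached above sham 1. Its log2 fold change was -0.56 ± 0.32, adjusted p = 0.274 (edgeR). Of the other inhibitors Cdkn1b held 28.2, 21.5 and 25.6 CPM in sham 1 to 3 and 36.8, 34.0 and 34.9 CPM in OVX 1 to 3, and Cdkn2c held 19.54, 19.8 and 18.9 CPM in sham 1 to 3 and 30.6, 28.5 and 26.0 CPM in OVX 1 to 3. Both lay higher in OVX without overlap and did not pass, at log2 fold changes of 0.43 ± 0.18, adjusted p = 0.154 for Cdkn1b and 0.54 ± 0.18, adjusted p = 0.0893 for Cdkn2c (edgeR). The other 7 G1 genes had log2 fold changes between 0.0201 (Cdk4) and 0.48 (Ccnd2), and 5 of them overlapped.

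**Figure D3:**
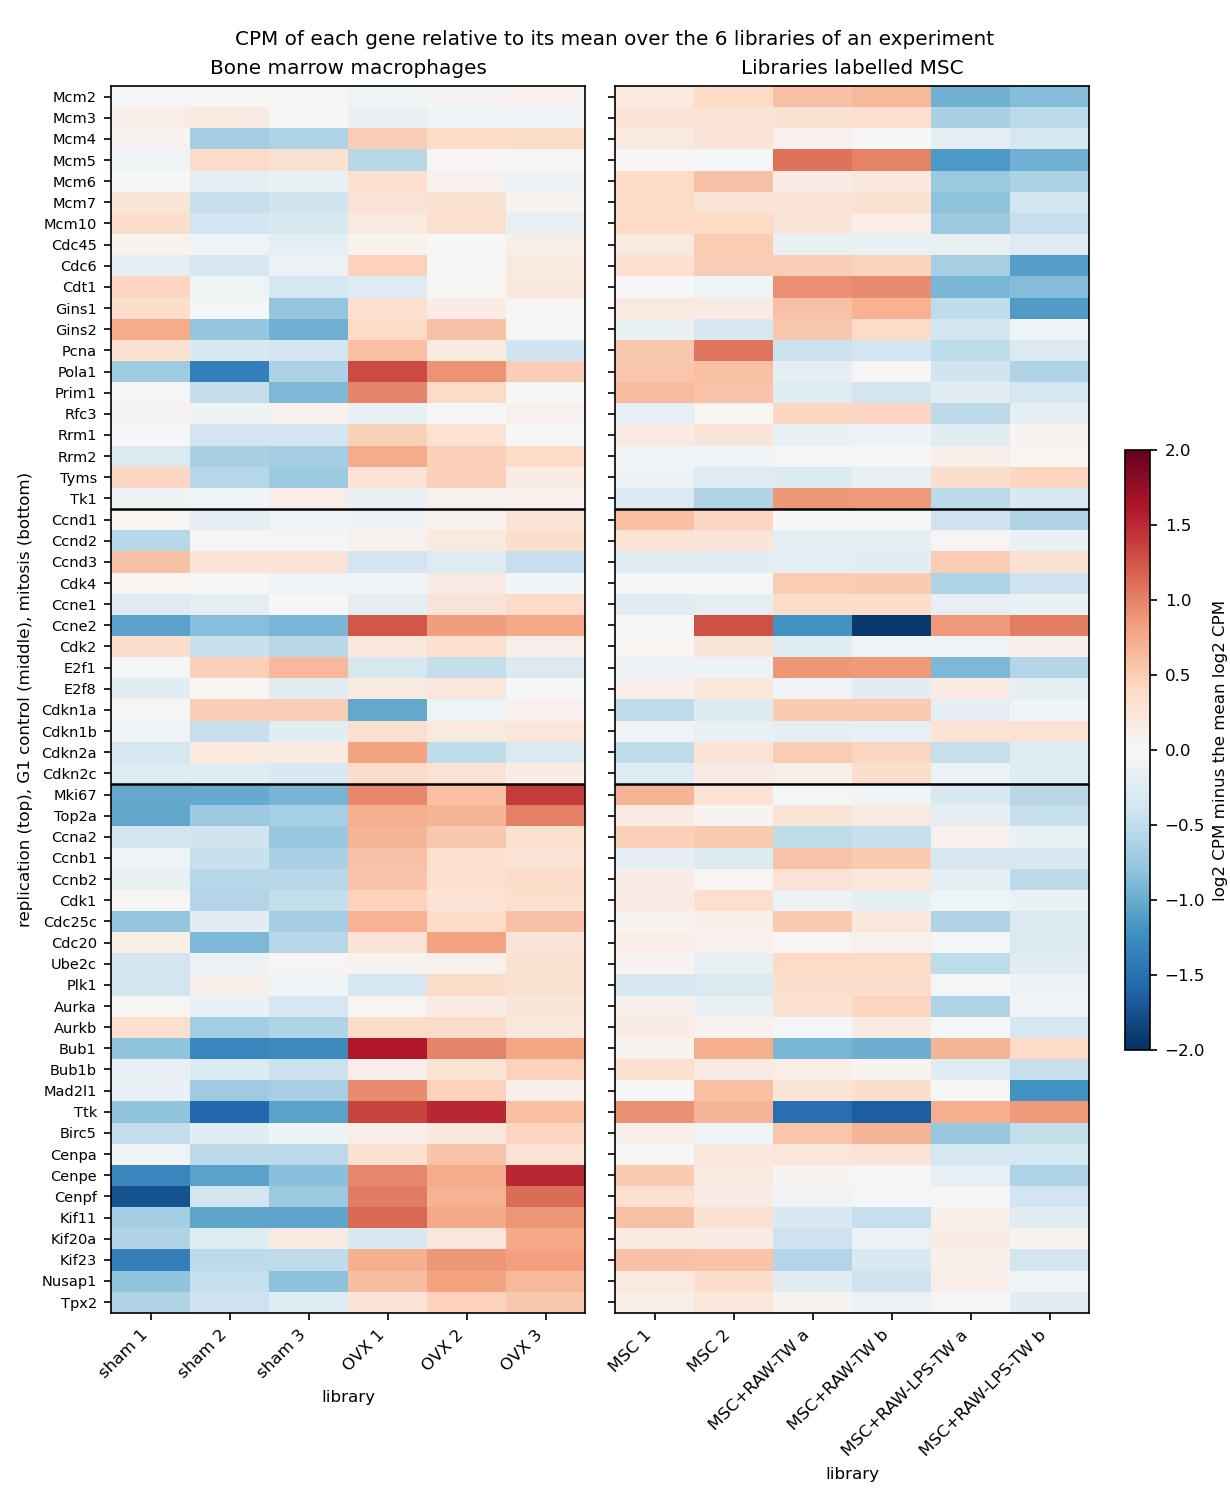
Each of the 58 genes (vertical axis) in each library (horizontal axis), as log2 CPM minus the gene's mean log2 CPM over the 6 libraries of its experiment, red above and blue below the mean. The 13 called mitosis genes in the bottom block are blue in all 3 sham libraries and red in all 3 OVX libraries, and the 13 replication genes that fell, in the top block, are blue in both libraries of MSC+RAW-LPS-TW.

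Other genes of the same processes were counted from lists made beside the 58. Of 66 other mitosis genes 29 rose in OVX macrophages and none fell, with a median log2 fold change of 0.74. Among spindle, condensin and cytokinesis genes 16 of 26 rose, among kinetochore and checkpoint genes 11 of 20, and among genes of mitotic entry and exit 2 of 20. The largest rises were those of Kif18a, a kinesin that trims spindle microtubules (2.72), the condensin subunit Ncapg (2.52) and the spindle pole protein Aspm (2.46). Knl1, the scaffold that holds Bub1 at the kinetochore, had a log2 fold change of 2.07. Of 41 other replication genes tested 6 rose and none fell, with a median of 0.31, among them Dbf4 (1.40) and Cdc7 (0.99), which together form the kinase that fires origins, and Tipin (1.34), a fork protection factor. Of 41 other G1 control genes 4 rose and none fell, which, like the 2 of 20 of mitotic entry and exit, is close to the 7.25% of all genes that rose. The 4 were Skp2 (0.95), which marks CDK inhibitors for destruction, and 3 genes of the p53 list, Trp53inp1 (1.42), Ccng1 (1.29) and Gadd45a (1.01).

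The GC content of genes moved with this comparison. Across the 16751 genes with a GC value the log2 fold change fell with GC content (Spearman rho -0.55, over genes measured in the same libraries and so not independent). The median log2 fold change was 0.48 in the bin of 838 genes centred at a GC content of 43.0%, and -0.42 in the bin centred at 56.9%. The 13 mitosis genes that rose had a median GC content of 43.4%, and the 12 that did not pass had 49.55%. With the trends of each library on GC content and gene length removed, 14 of the 58 genes rose and none fell, 12 of them among the 17 called above, against 2.55% higher and 4.23% lower over all genes. Mitosis genes then gave 11 rises and a median of 0.79, and replication genes 2 rises and a median of 0.19. Under this correction Ccne2 (0.84), Ccnd3 (-0.45), Cdc25c (0.75), Cenpf (1.38) and Nusap1 (0.80) no longer passed, while Ube2c (0.73) and Cdkn2c (0.99) did. Of the other genes of these processes, 19 mitosis, 2 replication and 1 of the G1 control genes then rose. By list, 13 of 26 spindle, condensin and cytokinesis genes, 3 of 20 kinetochore and checkpoint genes and 3 of 20 genes of mitotic entry and exit rose under this correction. Kif18a, Ncapg, Aspm, Tipin and Gadd45a still passed, while Knl1 (1.09), Dbf4 (0.53), Cdc7 (0.57), Skp2 (0.62), Trp53inp1 (0.55) and Ccng1 (0.59) did not.

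**Figure D4:**
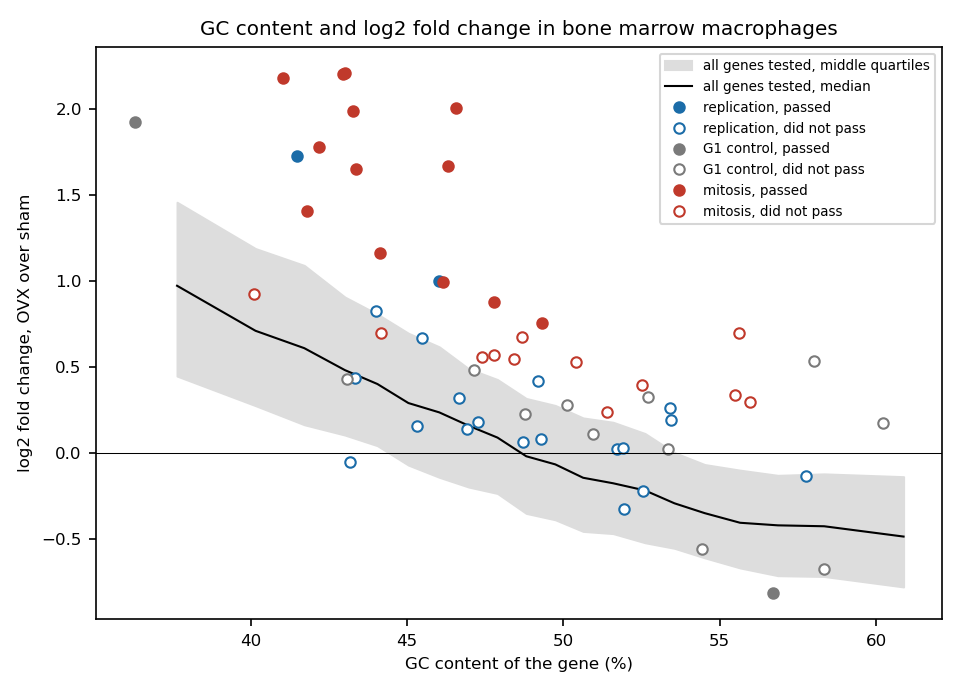
Log2 fold change of OVX over sham (vertical axis) against the GC content of the gene (horizontal axis), with the median and the middle quartiles of all genes in 20 bins of GC content and the 58 genes as points. The called mitosis genes (filled red) lie above the middle quartiles of genes with the same GC content, whose median falls from 0.97 to -0.49 across the bins.

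The count of calls depended on single libraries, among the 58 genes and over all genes. Without OVX 2 5 of the 58 genes rose, without OVX 1 10 rose, and without sham 1 25 rose, while the share of all genes called in either direction went from 13.1% to 1.9%, 4.52% and 19%, in that order. The 5 genes called whichever library was left out were Mki67, Top2a, Bub1, Cenpe and Kif11. The median log2 fold change of the mitosis genes stayed between 0.78 and 1.01 over the fits with 1 library left out. That of the replication genes, 0.17 with all libraries, ran from 0.09 without OVX 1 to 0.49 without sham 1. Without sham 2 and 3 together the medians were 0.88 for mitosis and -0.03 for replication genes. Library codes in the column names fall into 2 series, of which the first holds sham 2 and OVX 2. Their mitosis sums were 443 and 820 CPM, and those of the second series were 480 and 447 CPM in sham and 851 and 884 CPM in OVX.

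Of 52 markers of cell types tested in OVX against sham, 3 rose and 7 fell, against 7.25% and 5.83% of all genes. Macrophage markers summed to 60500 to 64410 CPM in sham and to 44370 to 48250 CPM in OVX. Lyz2, which did not pass, alone held 48360 to 51580 CPM in sham and 36110 to 40470 CPM in OVX. In OVX 5 of 12 fell (Adgre1, C1qa, C1qb, Cd14 and Fcgr1) and Mrc1 rose. Neutrophil and granule markers summed to 818 to 958.5 CPM in sham and to 1207 to 1341 CPM in OVX, with 1 of 10 higher (S100a9). S100a9 alone held 368 to 424.8 CPM in sham and 608.3 to 646.4 CPM in OVX, and S100a8 287.9 to 366.6 and 435.9 to 493.6 CPM. Of the 10 markers 5 had log2 fold changes above 0 and 5 below. Among the latter Mpo held 8.18 to 15.67 CPM in sham and 3.689 to 7.085 CPM in OVX. Of the stromal markers 1 of 12 rose (Nt5e), and their sums overlapped (7187 to 7702 CPM in sham, 7496 to 8136 CPM in OVX). Of the 7 B cell markers 2 fell, Cd79b among them, and no progenitor or erythroid marker passed. With GC content and length trends removed 2 of the 12 macrophage markers fell (Adgre1 and Fcgr1), Mrc1, Nt5e and Cd79b kept their calls, S100a9 did not pass, and the stromal markers Pdgfra and Dcn and the progenitor marker Cd34 fell. The part of these markers in the rise of the mitosis genes was not tested.

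The second tested comparison asked what RAW264.7 cells stimulated with LPS changed in the cells labelled MSC. In MSC+RAW-LPS-TW 20 of the 58 genes fell and 2 rose against MSC, and 13 of the 20 were replication genes. Of 12 origin licensing and helicase genes 10 fell, and of 4 polymerase, primase and clamp genes 3 fell. Among mitosis genes 4 of 25 fell and none rose. Of the G1 genes Ccnd1, Cdk4 and E2f1 fell and Ccnd3 rose. Over all 20499 genes tested, 9.85% fell and 11.1% rose. The median log2 fold change was -0.87 for replication genes and -0.42 for mitosis genes, against -0.01 over all genes. Of the 58 genes 40 lay lower without overlap and 7 higher, against 28.9% and 28.7% of all genes, counts that rest on 2 samples a group. Of the falls 7 were at least 2-fold, 6 of them in replication genes, and neither rise was, against 5.09% of all genes lower and 5.85% higher by both criteria.

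The subunits of the replicative helicase fell together. Mcm2 held 49.96 and 57.1 CPM in the MSC libraries against 22.3 and 23.9 CPM in the MSC+RAW-LPS-TW libraries, and Mcm3 held 72.7 and 72.3 CPM in the MSC libraries against 38.6 and 41.3 CPM in the MSC+RAW-LPS-TW libraries. Mcm5 held 73.8 and 72.4 CPM in the MSC libraries against 32.6 and 37.4 CPM in the MSC+RAW-LPS-TW libraries. In each of these both MSC+RAW-LPS-TW libraries were below both MSC libraries, with log2 fold changes of -1.22 ± 0.16, adjusted p = 3.43e-05 for Mcm2, -0.86 ± 0.15, adjusted p = 5.34e-04 for Mcm3 and -1.07 ± 0.15, adjusted p = 8.46e-05 for Mcm5 (edgeR). Mcm6 held 121 and 138 CPM in the MSC libraries against 54.9 and 59.3 CPM in the MSC+RAW-LPS-TW libraries, and Mcm7 held 50.5 and 47.0 CPM in the MSC libraries against 22.4 and 30.4 CPM in the MSC+RAW-LPS-TW libraries. Mcm6 and Mcm7 also fell without overlap, with log2 fold changes of -1.18 ± 0.15, adjusted p = 3.19e-05 and -0.89 ± 0.17, adjusted p = 0.00146 (edgeR), in that order. Mcm4 held 44.2 and 46.2 CPM in the MSC libraries against 33.8 and 30.2 CPM in the MSC+RAW-LPS-TW libraries and had the smallest fall of the 6 subunits, at -0.50 ± 0.16, adjusted p = 0.0329 (edgeR).

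The loaders of that helicase fell as well. Cdc6 held 15.8 and 17.5 CPM in the MSC libraries against 7.83 and 5.81 CPM in the MSC+RAW-LPS-TW libraries, and Cdt1 held 29.2 and 27.4 CPM in the MSC libraries against 15.4 and 15.8 CPM in the MSC+RAW-LPS-TW libraries. Cdc6 had the largest fall of the 58 genes, with a log2 fold change of -1.28 ± 0.22, adjusted p = 3.95e-04, a 2.44-fold drop, and Cdt1 had -0.86 ± 0.16, adjusted p = 0.00113 (edgeR). Mcm10, which helps to fire the loaded helicase, held 18.9 and 18.9 CPM in the MSC libraries against 8.62 and 10.4 CPM in the MSC+RAW-LPS-TW libraries. The GINS subunit Gins1 held 6.64 and 6.52 CPM in the MSC libraries against 4.08 and 2.65 CPM in the MSC+RAW-LPS-TW libraries. Both fell, Mcm10 by a log2 fold change of -0.998 ± 0.20, adjusted p = 0.00147 and Gins1 by -0.97 ± 0.28, adjusted p = 0.0212 (edgeR). Cdc45 held 12.9 and 16.2 CPM in the MSC libraries against 10.2 and 9.57 CPM in the MSC+RAW-LPS-TW libraries and Gins2 held 6.64 and 5.78 CPM in the MSC libraries against 5.58 and 6.83 CPM in the MSC+RAW-LPS-TW libraries. Neither passed, with log2 fold changes of -0.56 ± 0.21, adjusted p = 0.0761 for Cdc45 and -0.0062 ± 0.24, adjusted p = 0.993 for Gins2 (edgeR).

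At the fork, Pcna held 101 and 146 CPM in the MSC libraries against 48.7 and 56.8 CPM in the MSC+RAW-LPS-TW libraries. Pola1 held 14.3 and 14.7 CPM in the MSC libraries against 7.42 and 6.41 CPM in the MSC+RAW-LPS-TW libraries, and Prim1 held 12.3 and 11.9 CPM in the MSC libraries against 6.90 and 6.22 CPM in the MSC+RAW-LPS-TW libraries. All 3 fell without overlap, with Pcna differing most between the MSC libraries, and had log2 fold changes of -1.23 ± 0.18, adjusted p = 1.25e-04 for Pcna, -1.07 ± 0.21, adjusted p = 0.00174 for Pola1 and -0.88 ± 0.22, adjusted p = 0.00962 for Prim1 (edgeR). Rfc3, a subunit of the clamp loader, held 19.9 and 23.1 CPM in the MSC libraries against 15.6 and 19.9 CPM in the MSC+RAW-LPS-TW libraries and did not pass at -0.28 ± 0.19, adjusted p = 0.341 (edgeR).

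Of the 4 genes of nucleotide supply none fell and 1 rose. Tyms, which makes thymidylate, held 17.7 and 15.8 CPM in the MSC libraries against 24.2 and 25.4 CPM in the MSC+RAW-LPS-TW libraries and rose, with a log2 fold change of 0.56 ± 0.18, adjusted p = 0.0328 (edgeR). Rrm2 held 48.9 and 48.9 CPM in the MSC libraries against 54.5 and 52.3 CPM in the MSC+RAW-LPS-TW libraries, and Tk1, the thymidine kinase of S phase, held 34.4 and 27.7 CPM in the MSC libraries against 29.3 and 34.0 CPM in the MSC+RAW-LPS-TW libraries. Neither passed, and Tk1 overlapped, with log2 fold changes of 0.12 ± 0.15, adjusted p = 0.646 for Rrm2 and 0.0223 ± 0.17, adjusted p = 0.954 for Tk1 (edgeR). Rrm1 held 64.8 and 68.6 CPM in the MSC libraries against 50.1 and 60.0 CPM in the MSC+RAW-LPS-TW libraries, lower without overlap, and did not pass at -0.28 ± 0.16, adjusted p = 0.246 (edgeR).

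**Figure D5:**
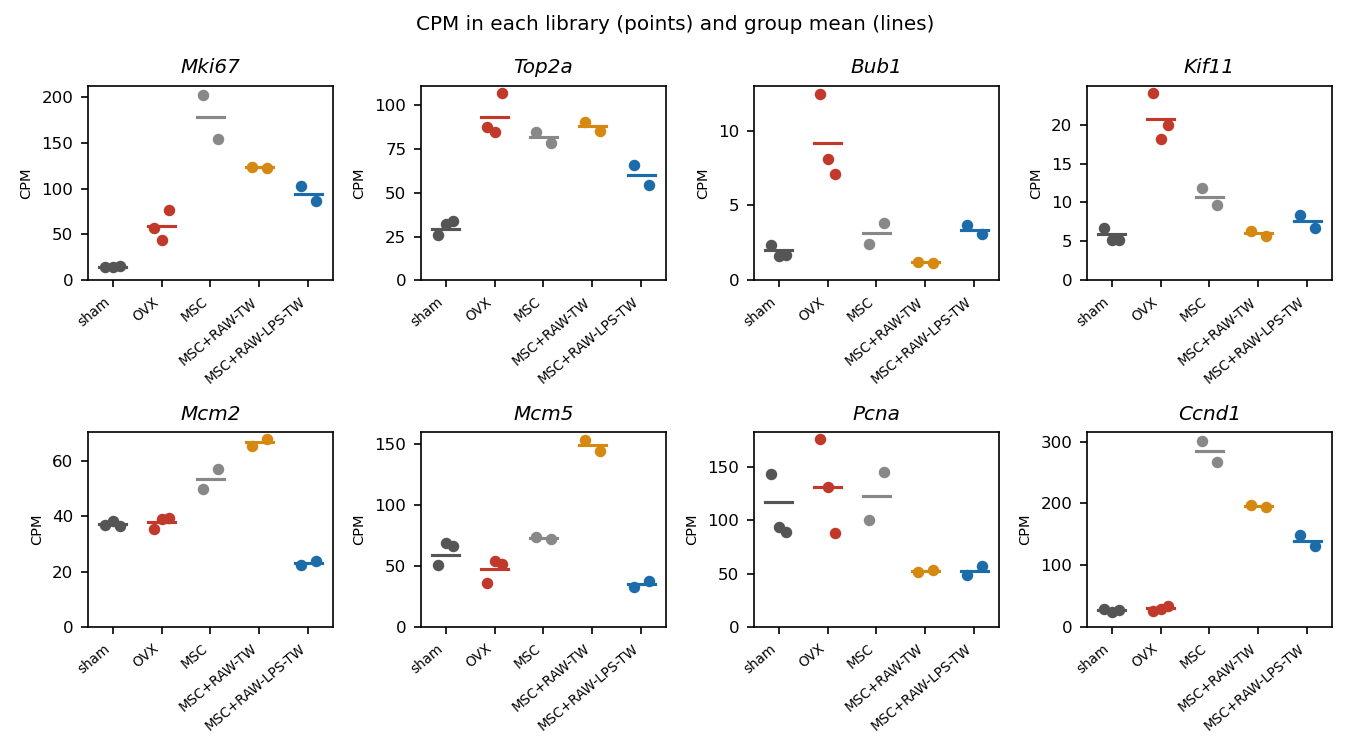
CPM (vertical axis, from 0) of 8 genes in each library (points) with the group mean (lines, near-identical libraries averaged first) for the 5 groups on the horizontal axis. Mki67, Top2a, Bub1 and Kif11 stand higher in OVX than sham without overlap (Kif11 at 18.2 to 24.0 against 5.19 to 6.77 CPM), and for Mcm2, Mcm5, Pcna and Ccnd1 the points of MSC lie above those of MSC+RAW-LPS-TW (Ccnd1 at 267 and 300.8 against 130.4 and 148 CPM).

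Among the G1 genes Ccnd1, the D-type cyclin that answers to growth factors, held 301 and 267 CPM in the MSC libraries against 148 and 130.4 CPM in the MSC+RAW-LPS-TW libraries. It fell 2.04-fold, with a log2 fold change of -1.03 ± 0.15, adjusted p = 1.23e-04 (edgeR). Its partner Cdk4 held 277 and 273 CPM in the MSC libraries against 179.5 and 207 CPM in the MSC+RAW-LPS-TW libraries, and E2f1 held 29.6 and 29.8 CPM in the MSC libraries against 17.2 and 21.4 CPM in the MSC+RAW-LPS-TW libraries. Both fell without overlap, with log2 fold changes of -0.51 ± 0.15, adjusted p = 0.0231 for Cdk4 and -0.62 ± 0.17, adjusted p = 0.0142 for E2f1 (edgeR). Ccnd3 held 27.5 and 27.6 CPM in the MSC libraries against 45 and 39.5 CPM in the MSC+RAW-LPS-TW libraries and rose, with a log2 fold change of 0.62 ± 0.16, adjusted p = 0.0113 (edgeR). Ccnd2 held 328 and 319.8 CPM in the MSC libraries against 275 and 247 CPM in the MSC+RAW-LPS-TW libraries and did not pass at -0.31 ± 0.15, adjusted p = 0.164, and none of the 4 CDK inhibitors passed, with Cdkn1a at 0.26 ± 0.15, adjusted p = 0.274 and Cdkn1b at 0.38 ± 0.18, adjusted p = 0.165 (edgeR). Ccne1, Ccne2, Cdk2, E2f8, Cdkn2a and Cdkn2c had log2 fold changes between -0.27 and 0.18 and did not pass.

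Of the mitosis genes 4 fell. Mki67 held 202 and 154 CPM in the MSC libraries against 103 and 86.1 CPM in the MSC+RAW-LPS-TW libraries, and Cenpe held 50.8 and 39.95 CPM in the MSC libraries against 31.7 and 23.2 CPM in the MSC+RAW-LPS-TW libraries. Bub1b held 26.6 and 23.9 CPM in the MSC libraries against 18.04 and 15.4 CPM in the MSC+RAW-LPS-TW libraries. In all 3 both libraries of MSC+RAW-LPS-TW were below those of MSC, with log2 fold changes of -0.92 ± 0.17, adjusted p = 8.66e-04 for Mki67, -0.73 ± 0.19, adjusted p = 0.0104 for Cenpe and -0.60 ± 0.18, adjusted p = 0.0255 for Bub1b (edgeR). Birc5 held 29.3 and 25.5 CPM in the MSC libraries against 16.0 and 19.46 CPM in the MSC+RAW-LPS-TW libraries and had a log2 fold change of -0.63 ± 0.18, adjusted p = 0.0168 (edgeR). Of the 21 that did not pass, Kif23 (-0.70 ± 0.24, adjusted p = 0.0512), Ccna2 (-0.52 ± 0.19, adjusted p = 0.0579) and Top2a (-0.44 ± 0.16, adjusted p = 0.059) were nearest to the threshold (edgeR). Plk1 (0.23 ± 0.19, adjusted p = 0.477) and Bub1 (0.11 ± 0.36, adjusted p = 0.884) had log2 fold changes above 0 and did not pass (edgeR). The other 16 lay between -0.80 (Mad2l1) and -0.0188 (Ttk).

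Of 42 other replication genes 15 fell and none rose, with a median log2 fold change of -0.49, where 9.85% of all genes fell and 11.1% rose. Among the falls were those of Lig1, which seals Okazaki fragments (-1.53), Gmnn, the inhibitor of Cdt1 (-1.36), and the histone chaperone Asf1b (-1.23). Of 66 other mitosis genes 15 fell and 3 rose, with a median of -0.29. Among these were the kinetochore gene Ndc80 (-1.08), the kinesins Kif14 (-1.09) and Kif15 (-0.96), the phosphatase Cdc25b (-0.90), and Cks2 (0.90), a CDK-binding protein, as a rise. Of 41 other G1 control genes 4 fell and 4 rose, which is close to the shares over all genes, with E2f2 (-1.88), Cdk6 (-1.55) and the p53 target Sesn1 (-2.56) lower and Myc (0.80) and Gadd45a (2.23), a stress gene, higher.

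Fold changes had a Spearman rho of -0.0028 with GC content across 20448 genes, and with the trends on GC content and length removed 24 of the 58 fell, 13 of them replication and 8 mitosis genes, against 10.4% of all genes, and 2 rose, against 11.5%. Without MSC 1 the count of falls was 13, while the share of all genes called in either direction went from 20.9% to 14%, and without MSC 1 or without MSC 2 neither Tyms nor Ccnd3 passed. The 12 calls that held whichever library was left out were Mcm2, Mcm3, Mcm5, Mcm6, Mcm7, Mcm10, Cdc6, Cdt1, Pcna, Pola1, Ccnd1 and Mki67. Over the fits with 1 library left out the median log2 fold change ran from -0.90 to -0.84 for replication and from -0.50 to -0.31 for mitosis genes. With every library as its own sample 14 replication and 9 mitosis genes fell, with 27.7% of all genes called in either direction. Each of the 2 series of library codes held 1 library of each group. The replication sum was 815 CPM in MSC against 493 CPM in MSC+RAW-LPS-TW in one series and 882 against 534 CPM in the other.

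Of 46 marker genes tested in MSC+RAW-LPS-TW against MSC, 10 rose and 8 fell, against 11.1% and 9.85% of all genes. Macrophage markers summed to 28750 and 28960 CPM in MSC and to 14230 and 14740 CPM in MSC+RAW-LPS-TW, where 7 of 12 fell and Adgre1 rose. Lyz2 made up 21610 and 21700 CPM of these sums in MSC and 9156 and 10020 CPM in MSC+RAW-LPS-TW. Mrc1 alone went from 584 and 593 to 3.99 and 4.02 CPM. Stromal markers summed to 2655 and 2789 CPM in MSC and to 4061 and 4054 CPM in MSC+RAW-LPS-TW, with 6 of 12 higher and 1 lower. Of the 10 neutrophil and granule markers 3 passed the filter on low counts, and 2 of them, S100a8 and Camp, rose. S100a9 stood at 0 to 0.06 CPM in all 6 libraries labelled MSC. The erythroid gene Hba-a1 also rose, and no B cell or progenitor marker passed. Their part in the fall of the replication genes was not tested.

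The MSC+RAW-TW sample had no replicate, so its values carry no test and genes were counted at 2-fold. Against MSC 2 of the 58 genes were at least 2-fold higher, Mcm5 and Tk1, and 4 at least 2-fold lower, Pcna, Ccne2, Bub1 and Ttk, while 13.7% of all 20499 genes were higher and 24.0% lower by that rule. The median log2 fold change over the 58 was -0.02, against -0.13 over all genes. Mcm5 held 73.8 and 72.4 CPM in MSC, 153 and 144 CPM in MSC+RAW-TW and 32.6 and 37.4 CPM in MSC+RAW-LPS-TW. Tk1 held 34.4 and 27.7 CPM in MSC, 76.6 and 76.1 CPM in MSC+RAW-TW and 29.3 and 34.0 CPM in MSC+RAW-LPS-TW. Both stood highest in MSC+RAW-TW. Pcna held 101 and 146 CPM in MSC, 51.7 and 53.4 CPM in MSC+RAW-TW and 48.7 and 56.8 CPM in MSC+RAW-LPS-TW, and was thus as low there as after LPS.

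Ccne2, Bub1 and Ttk had the lowest counts of the 58 in these libraries, down to 14 counts for Ccne2. Ccne2 held 1.51 and 3.70 CPM in MSC, 0.660 and 0.403 CPM in MSC+RAW-TW and 2.76 and 3.10 CPM in MSC+RAW-LPS-TW. Bub1 held 2.43 and 3.85 CPM in MSC, 1.22 and 1.18 CPM in MSC+RAW-TW and 3.69 and 3.06 CPM in MSC+RAW-LPS-TW, and Ttk held 3.41 and 2.91 CPM in MSC, 0.636 and 0.576 CPM in MSC+RAW-TW and 3.002 and 3.25 CPM in MSC+RAW-LPS-TW. All 3 were lowest in MSC+RAW-TW and overlapped between the other groups. The G1 genes E2f1 and Cdkn1a were highest in MSC+RAW-TW. E2f1 held 29.6 and 29.8 CPM in MSC, 58.3 and 57.6 CPM in MSC+RAW-TW and 17.2 and 21.4 CPM in MSC+RAW-LPS-TW, and Cdkn1a held 376 and 442 CPM in MSC, 767 and 772 CPM in MSC+RAW-TW and 468 and 516 CPM in MSC+RAW-LPS-TW.

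MSC+RAW-LPS-TW against the same MSC+RAW-TW sample gave 3 genes at least 2-fold higher, Ccne2, Bub1 and Ttk, and 9 at least 2-fold lower, against 28.2% higher and 19.4% lower over all genes. The lower genes were Mcm2 (-1.56), Mcm5 (-2.12), Cdc6 (-1.37), Cdt1 (-1.85), Gins1 (-1.45), Tk1 (-1.30), Cdk4 (-1.06), E2f1 (-1.62) and Birc5 (-1.26). The median log2 fold change was -0.80 for replication genes and -0.41 for mitosis genes, against 0.14 over all genes. The 3 comparisons of the second experiment share samples, so their values are not independent of each other. The MSC+RAW-TW libraries also stood apart in GC content, with a Spearman rho of 0.40 between GC content and level relative to the mean over the experiment, against -0.31 to -0.15 in the other 4 libraries. With GC content and length trends removed, 16 of the 58 genes were at least 2-fold lower and 2 higher against MSC+RAW-TW, with 16.3% lower and 26.9% higher over all genes, and Cdk4 (-0.64) and Bub1 (0.78) were no longer at 2-fold. MSC+RAW-TW against MSC then gave 3 lower and 2 higher, with 22.3% and 9.81% over all genes. There Mcm5 (0.84) and Bub1 (-0.74) were no longer at 2-fold, and Ccnb1 (1.19) was. The median log2 fold change of MSC+RAW-TW against MSC went from 0.36 to 0.03 for the 2 E2F factors, E2f1 among them. For the 4 CDK inhibitors, Cdkn1a among them, it went from 0.43 to 0.07.

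The experiments share no samples, and the genes called in each can be set side by side. Of the 16 genes that rose in OVX macrophages and the 20 that fell in MSC+RAW-LPS-TW, 3 genes were in both lists, Pola1, Mki67 and Cenpe. Ccnd3 fell in the first and rose in the second comparison, but the fall did not pass in 4 of 6 fits with 1 library left out, nor with GC and length trends removed, and the rise did not pass without MSC 1 or without MSC 2. The other 17 genes that fell in MSC+RAW-LPS-TW, 12 of them replication genes, did not pass in OVX macrophages, and whether the comparisons differ at these genes was not tested.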

How the data were processed

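RNA-seq of 12 libraries was analysed from 2 tables of counts, 1 for each experiment. According to the methods and the processing notes of the submitters, the authors trimmed reads with Trim Galore 0.6.7, mapped them to GRCm38 with HISAT2 2.1.0 and used featureCounts 2.0.1 to count them over Ensembl genes, and the deposited counts per gene and library were neither normalized nor filtered. The strand setting of the counting is not given in the sources used here, so reads of overlapping genes on opposite strands could not be told apart.

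Identifiers were matched to symbols, exon length and GC content through GENCODE annotation of GRCm38, which named 55141 of 55487 genes. The members and all gene lists were chosen with earlier results of these data known. For each pair of libraries of a group a chi-square was computed at every gene, and pairs with a mean ratio to expectation under 10 at genes of at least 5000 counts were summed for the fits and averaged as 1 replicate. Counts were fitted per experiment over all its groups with edgeR 4.0.16 in R 4.3.3 (TMM normalization, filterByExpr, quasi-likelihood F-test, two-sided), with Benjamini-Hochberg adjustment over all genes tested. The adjusted p limit was 0.05 with no limit on the fold. Contrasts with the MSC+RAW-TW sample were counted at 2-fold without a test. Summed levels, medians and counts were described without a test. Other genes of the pathways were named as those of each list with the largest changes among the called. Some results are not reported here.

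Simulated data had the same numbers of samples and the same spread for every gene, with no trend on GC content. Their 200 changed genes moved at least 2-fold and were expected above 200 counts. For OVX against sham 197 of these were recovered, with 3 false calls among 16344 genes. For MSC+RAW-LPS-TW against MSC it was 194 of 200, with 7 false calls among 18530. Smaller changes and changes in genes of lower counts were not simulated. Alternatives were each library as its own sample, a replicate block, RLE normalization, no filter, DESeq2 1.42.0, a 2-fold limit and each library left out in turn. A block for the series of library codes, removal of lowess trends on GC content and length (span 0.3) and leaving out sham 2 and 3 together were tried as well. Figures were drawn with matplotlib 3.10.9.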

Additional observations from a re-analysis of the deposited data

How the results depend on the processing

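Among the 58 genes, 16 higher and 1 lower in OVX against sham became 25 and 2 with every library as its own sample, 30 and 4 when a replicate block was added to that fit, 22 and 2 with the series of library codes as a block, 21 and 2 without a filter, 19 and 2 with DESeq2, 14 and 0 with GC and length trends removed and 12 and 0 at a 2-fold limit. Over all genes the share called was 13.1% and became 26.3%, 40%, 20.5%, 12%, 11%, 6.77% and 8.46% in the same order. Leaving out 1 library gave 5 to 25 higher and 0 to 1 lower, with 25 without sham 1, 10 without OVX 1 and 5 without OVX 2, and 1.9% to 19% of all genes called. Deviations of same-numbered sham and OVX libraries had correlations of 0.52, -0.055 and 0.52, against -0.61 to 0.49 for pairs of unlike numbers. As sham 2 and sham 3 were nearly identical, these values could not settle whether the numbers pair the samples. The main fit used no pairing. In the second experiment pairing by replicate number was not possible because the MSC columns carry the numbers 1 and 2, both MSC+RAW-TW columns the number 1 and the MSC+RAW-LPS-TW columns 2 and 3, so MSC shares 1 number with each. With the series of library codes as a block, MSC+RAW-LPS-TW against MSC gave 2 higher and 24 lower. For MSC+RAW-LPS-TW against MSC, 2 higher and 20 lower became 0 and 7 at a 2-fold limit, and 0 to 2 higher and 13 to 26 lower when 1 library was left out, the extremes being 0 and 13 without MSC 1. Over all genes the share called was 20.9% and became 10.9% at the 2-fold limit and 14% to 25.3% with 1 library left out. MSC+RAW-TW against MSC gave 4 higher with RLE normalization, and 1 to 4 higher over the leave-one-out fits, with 4 without MSC 2 and 1 without MSC+RAW-TW a. Set against MSC+RAW-TW in place of MSC, MSC+RAW-LPS-TW gave 16 lower with GC and length trends removed. Where leaving out a library left 1 sample in a group, that sample was taken to vary like the others. The cause of these differences was not tested.

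Some genes that had not passed changed sign. For OVX against sham the log2 fold change with GC and length trends removed was 0.0312 for Mcm3, 0.28 for Cdt1, -0.12 for Pcna, -0.11 for Rrm1 and -0.0601 for Cdkn1b. Without sham 2 and 3 together it was -0.0336 for Mcm7, -0.24 for Mcm10, -0.0255 for Cdc45, -0.20 for Gins1, -0.40 for Gins2, -0.14 for Pcna, -0.13 for Tyms, -0.0233 for Cdk4, -0.14 for Cdk2 and -0.0105 for Aurkb. With 1 library left out it ranged over -0.00199 to 0.0686 for Mcm2, -0.0301 to 0.45 for Mcm10, -0.24 to 0.23 for Cdt1, -0.00828 to 0.58 for Gins1, -0.11 to 0.53 for Pcna, -0.0997 to 0.0135 for Rfc3, -0.0452 to 0.10 for Tk1, -0.0493 to 0.06505 for Cdk4 and -0.34 to 0.42 for Cdkn2a. For MSC+RAW-LPS-TW against MSC the corrected value was 0.0526 for Gins2, and the leave-one-out values ranged over -0.15 to 0.10 for Gins2, -0.12 to 0.19 for Tk1, -0.34 to 0.95 for Ccne2, -0.38 to 0.0135 for E2f8, -0.62 to 0.17 for Cdkn2a, -0.36 to 0.0782 for Cdkn2c, -0.19 to 0.48 for Bub1 and -0.12 to 0.10 for Ttk. No gene that passed changed sign under an alternative. The lowest counts, 13 for Ttk among the macrophages and 14 for Ccne2 among the libraries labelled MSC, limit the precision there. Intervals and p-values cover no error shared by all libraries of a group.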
